A study of Mus musculus with 45 samples.

Results

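Genes of the colonic mucus layer, 10 in number, were followed across the 15 RNA-seq libraries of the series: Muc2, Fcgbp, Zg16, Tff3, Agr2, Spink4, Creb3l1, Muc1, Muc4 and Muc13. They were chosen by gene symbol as goblet cell and mucin genes, not by their values, but with earlier results of these data known. They make up 10 of 24918 entries of the gene count table. All 10 had enough reads to enter the comparison, which covered 12961 entries. The libraries came from the colonic epithelium of male C57BL/6 mice (substrain C57BL/6J) that were 6 weeks old when the diets began, with 5 mice in each of 3 groups. Control mice (LF) ate a diet with 10% fat for 20 weeks. Obese mice (HF) ate a diet with 60% fat for 20 weeks. Formerly obese mice (HFLF) ate the high-fat diet for 15 weeks and the low-fat diet for the last 5 weeks. The epithelium was released with EDTA from the whole colon of each mouse, so every library mixes positions along the colon and epithelial cell types. The share of each position and cell type in a library was not measured. The series asks which changes obesity brings to the colonic epithelium and which of them remain after weight loss, and the mucus genes can be read in the same way.

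Goblet cells are the secretory cells that are abundant in the crypts of the colon. They package the gel-forming mucin MUC2 into granules and release it as the mucus layer that separates bacteria from the epithelium. Several other proteins are made and secreted with it: FCGBP, which is bound to the mucin network, ZG16, a lectin that binds bacteria, TFF3, a small trefoil peptide that aids epithelial repair, and SPINK4, a Kazal-type peptide of goblet cells. AGR2 is a protein disulfide isomerase of the endoplasmic reticulum that MUC2 needs for its folding, and CREB3L1 is a transcription factor held in the membrane of the endoplasmic reticulum. MUC1, MUC4 and MUC13 are a different class, mucins anchored in the cell membrane, which are also made by absorptive cells.

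Each library held between 15230391 and 22762095 counts, and the deepest was 1 of the formerly obese mice, HFLF replicate 3. Levels are given as CPM, the counts of a gene per 1000000 counts of its library, after scaling for library composition. The summed level of 7 pan-epithelial genes lay between 13287 and 15759 CPM in the 15 libraries, while 6 smooth muscle genes together never passed 2.70 CPM. Sums over 6 fibroblast genes and 9 immune genes stayed between 2.34 and 30.6 CPM and between 16.3 and 50.3 CPM. In bulk tissue, fewer goblet cells and less RNA per goblet cell cannot be told apart.

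Fcgbp and Muc2 held ranks 12 and 13 of the 12961 entries by mean CPM, and Muc13, Zg16 and Agr2 held ranks 21, 38 and 48. Together the 10 genes took 1.16% ± 0.12 of all counts in control mice, 1.18% ± 0.11 in obese mice and 1.22% ± 0.10 in formerly obese mice (SD, n = 5 each). The share ran from 1.01% to 1.36% over the 15 mice and the 3 groups overlapped. The order of levels changed once exon length was taken into account. On the scale of CPM per kilobase of exon, Zg16 was highest with a mean of 2142, followed by Agr2 with 1639, Tff3 with 1086, Spink4 with 1013 and Muc13 with 743. Muc2 and Fcgbp, with long transcripts, came after them with 379.5 and 358, and their exon lengths in the RefSeq models used here were 7149 and 7930 bases. Creb3l1 had 135, Muc4 16.6 and Muc1 2.68 CPM per kilobase. Muc1 was counted with only 77 to 128 reads per library, so its values carry more counting error than those of the other 9 genes.

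**Figure D1:**
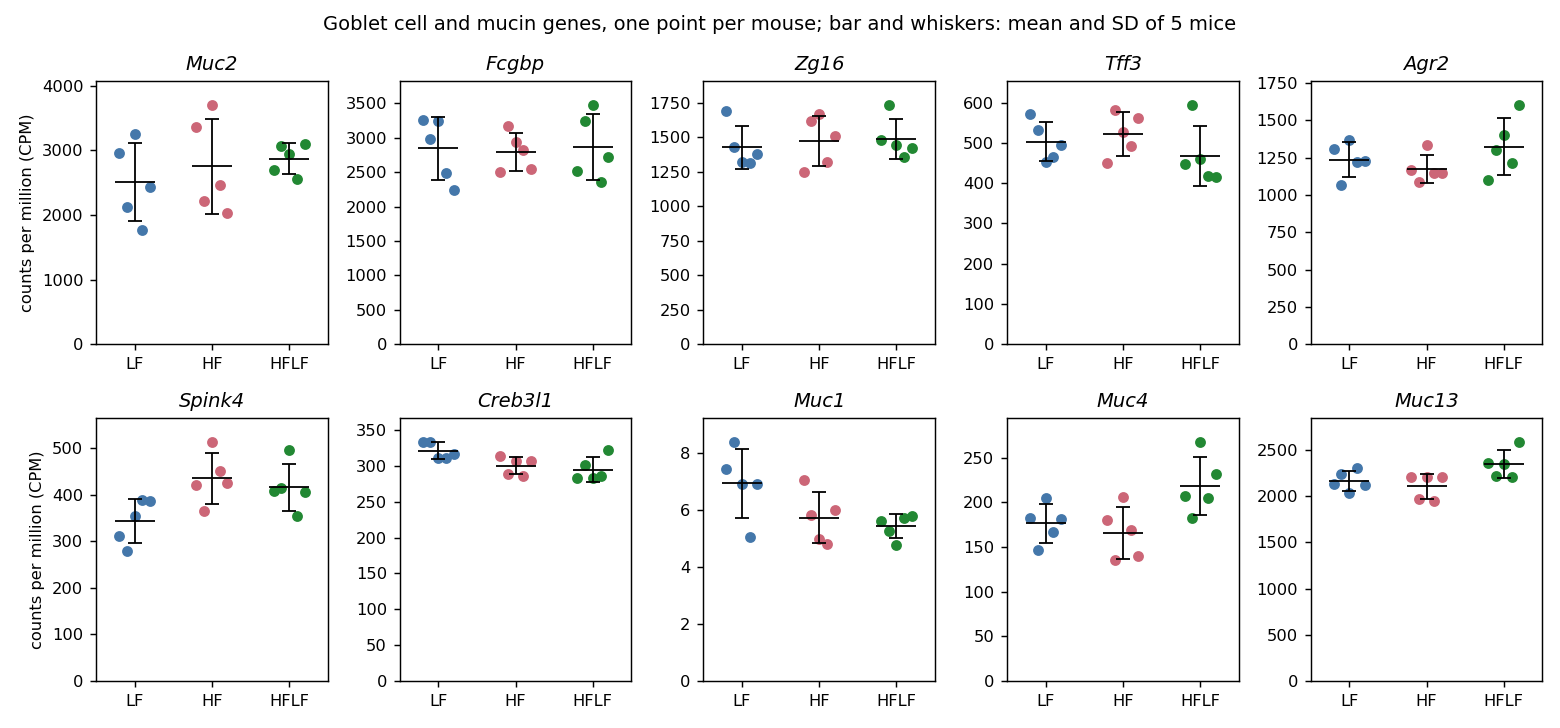
Level of each of the 10 genes in CPM (vertical axes, from 0) in control (LF), obese (HF) and formerly obese (HFLF) mice. Each point is 1 mouse, and the bar with whiskers is the mean and SD of 5 mice. For every gene the points of the 3 groups overlap. Spink4 is higher in the obese mice (435 ± 54.0 CPM) than in the controls (344 ± 47.6), and Muc4 is higher in the formerly obese mice (219 ± 32.5) than in the obese mice (166 ± 29.2).

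A gene was called changed when its fold was over 1.2 in either direction with p under 0.01 and a Benjamini-Hochberg adjusted p under 0.25 in edgeR's quasi-likelihood test, limits that the study also used. At an adjusted p of up to 0.25, a considerable share of calls can be false. Comparing obese with control mice, 1 of the 10 genes was called, Spink4 (higher), where 1.58% of all tested entries were called. Comparing formerly obese with control mice, edgeR called 0 of the 10, where 3.72% of all tested entries were called. DESeq2 called 2 of the 10 there, but its share over all entries is not given here, so that count has no background beside it. Comparing formerly obese with obese mice, 1 of the 10 was called, Muc4 (higher), where 2.65% of all tested entries were called. The comparisons share libraries, so they are not independent of each other. An unadjusted p under 0.05 was found for 2, 4 and 2 of the 10 in the 3 comparisons, where it was found for 10.9%, 16.7% and 13.4% of all entries. The groups of mice overlapped for all 10 genes in all 3 comparisons, whereas they did not overlap for 2.47%, 3.62% and 3.38% of all entries. The median log2 fold change of the 10 genes was -0.03, 0.08 and 0.02 in the 3 comparisons, and that of all tested entries was 0.00 in each. Every 95% interval lay within 1 log2 unit of 0, so a change of 2-fold in any of the 10 genes lies outside its interval, and the farthest bounds were 0.56, 0.64 and 0.65.

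**Figure D2:**
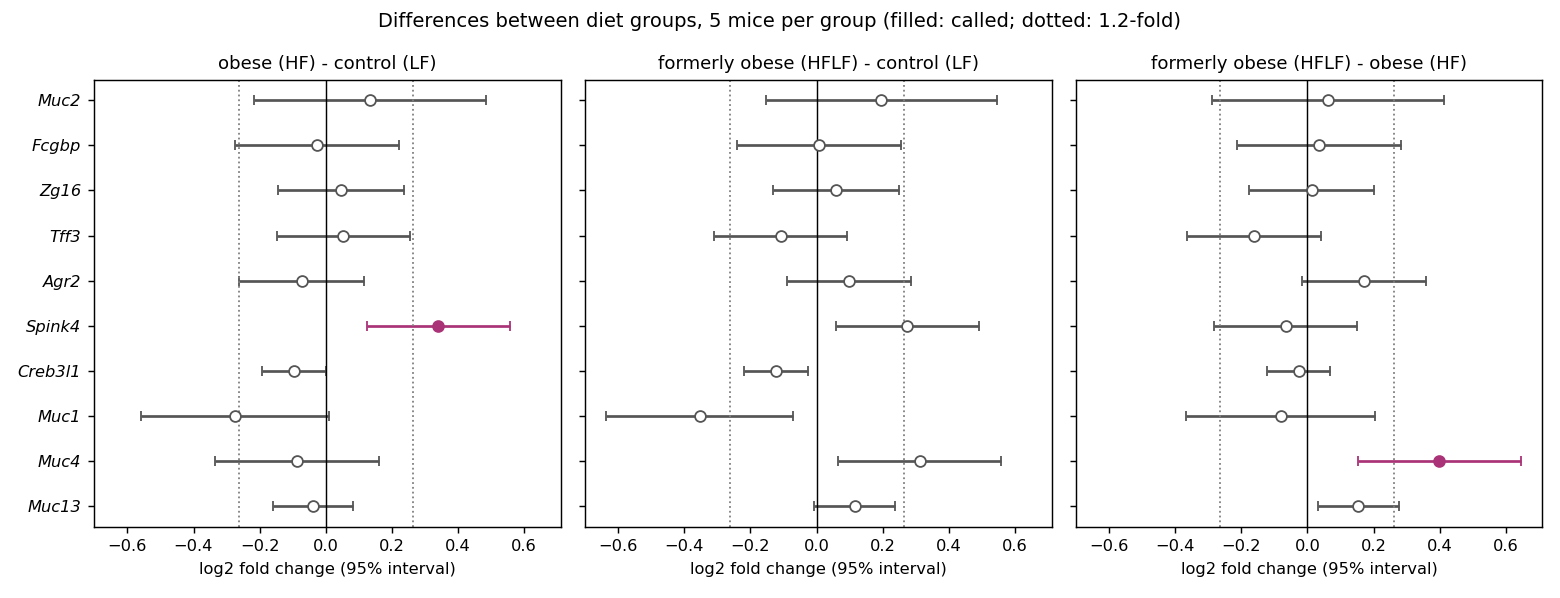
Log2 fold change of the 10 genes (horizontal axes) with its 95% interval from the edgeR fit, for obese minus control mice (left), formerly obese minus control mice (middle) and formerly obese minus obese mice (right). Filled symbols are called genes and dotted lines mark a 1.2-fold change. Spink4 is the filled symbol on the left (0.34) and Muc4 the filled symbol on the right (0.40), and the middle panel has none.

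Muc2, the mucin that forms the gel, varied more between mice of 1 diet than between diets. In control mice its levels were 2955, 2124, 3255, 1771 and 2441 CPM. In obese mice they were 3364, 2212, 3704, 2467 and 2029 CPM, and in formerly obese mice 2692, 3069.8, 2948.5, 2557 and 3107 CPM. The highest and lowest control mice thus stood further apart than any group means, and the formerly obese mice were the most alike. The log2 fold change was 0.13 ± 0.17 (SE) in obese mice and 0.20 ± 0.17 in formerly obese mice against controls, with edgeR adjusted p of 0.825 and 0.591. Errors of log2 fold changes are SE throughout. Formerly obese mice differed from obese mice by 0.06 ± 0.17. The 95% interval for obese against control mice ran from -0.22 to 0.49, so differences within that range remained compatible with the data.

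Fcgbp lay between 2246 and 3260.3 CPM in control mice, between 2509.7 and 3165 CPM in obese mice and between 2355 and 3477 CPM in formerly obese mice. The 3 ranges coincided almost fully, and the log2 fold changes were -0.03, 0.01 and 0.03 in the 3 comparisons (SE 0.12). Part of the Fcgbp span, 27553 bases, also holds the gene model Gm21925 on the same strand, so the assignment of its reads is less certain.

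Zg16 and Tff3 were close to level across diets. Zg16 was at 1689.5, 1426, 1320.1, 1316 and 1378 CPM in control mice and at 1244, 1618.5, 1668, 1323 and 1506.5 CPM in obese mice. In formerly obese mice it was at 1476, 1733, 1440.2, 1359 and 1419 CPM, and its fold changes were 0.05, 0.06 and 0.01 (SE 0.09). Tff3 was at 571, 532, 453, 466 and 495 CPM in control mice and at 449, 583, 527, 491 and 561 CPM in obese mice. Of the formerly obese mice, 4 were at 448, 461, 418 and 415 CPM, and replicate 2 stood apart above them at 594 CPM. The difference of formerly obese from obese mice in Tff3 was -0.16 ± 0.10 (edgeR adjusted p = 0.498).

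Agr2, which folds MUC2, ranged from 1064 to 1370.2 CPM in control mice, from 1086 to 1334 CPM in obese mice and from 1098 to 1603 CPM in formerly obese mice. Its largest difference was that between formerly obese and obese mice, 0.17 ± 0.09 (edgeR adjusted p = 0.431). Creb3l1 was the steadiest of the 10 genes between mice. It was at 334, 333, 311, 311 and 317 CPM in control mice, at 313, 289, 307, 286 and 307 CPM in obese mice and at 283, 302, 282, 286 and 322 CPM in formerly obese mice. Of the obese mice 4, and of the formerly obese mice 4, lay below the lowest control mouse, yet the changes were small (-0.10 ± 0.05 and -0.12 ± 0.05 against controls), below the 1.2-fold cutoff, with edgeR adjusted p of 0.459 and 0.173.

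Spink4 was the only one of the 10 genes called in obese against control mice. Its levels were 311, 279, 354, 388 and 385 CPM in control mice, 422, 365, 514, 450.5 and 424 CPM in obese mice, and 408, 414, 495, 354 and 406 CPM in formerly obese mice. Of the obese mice, 4 were above every control mouse and 1 lay within the control range. The log2 fold change in obese mice was 0.34 ± 0.10, with a 95% interval from 0.12 to 0.56 and an edgeR adjusted p of 0.214. Formerly obese mice stood 0.27 ± 0.10 above controls (adjusted p = 0.175), not called because the unadjusted p was 0.0159, and -0.07 ± 0.10 from obese mice. The call in obese mice rested on the full set of mice: without LF replicate 1, 2 or 3 or HF replicate 1, 3, 4 or 5 the fold stayed between 0.27 and 0.35 but the gene was no longer called (edgeR adjusted p from 0.271 to 0.506).

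The summed level of 7 Paneth and deep crypt secretory genes ran from 292 to 475 CPM (control), from 352 to 579.9 CPM (obese) and from 351 to 736 CPM (formerly obese). Over the 15 mice, with group means subtracted, Spink4 correlated with this sum at r = 0.89, its highest value among the gene lists compared. Other sums also went with Spink4: dividing cell genes (0.72), small intestine genes (0.67), mucin sugar chain enzymes (0.63) and colonocyte genes (0.60). Most of the Paneth and deep crypt sum was Reg4, a lectin of deep crypt secretory cells (275, 391 and 390.2 CPM on average in the 3 groups). Ang4, the next most abundant gene of that sum, was lower in obese mice on average (86.6, 50.3 and 112 CPM) with no call against controls. Lyz2 and Mmp7 differed by 0.12 and 0.16 on the log2 scale in obese mice, also with no call, and the Paneth defensins Defa17 and Defa24 were at 0 in every library. Of the 5 list genes tested, 1 was called higher in obese mice, Lyz1, a lysozyme of Paneth cells, from 0.82 to 3.19 CPM. Of 7 tested absorptive genes of the small intestine, 3 were called higher in obese than in control mice (Apob, Alpi and Fabp6) and 5 in formerly obese than in control mice, where 0.718% and 1.85% of all entries were called higher. The part of these shifts in the Spink4 result was not tested.

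Muc4 was the only one of the 10 genes called between formerly obese and obese mice. It was at 183, 147, 204, 166 and 182 CPM in control mice and at 179.8, 135, 206, 169 and 140.3 CPM in obese mice. Formerly obese mice had 207, 183, 268, 204 and 231 CPM. Of these, 3 were above every mouse of the other groups, and the remaining 2 lay within the range of the obese mice, 1 of them also within that of the control mice. The log2 fold change against obese mice was 0.40 ± 0.12, with a 95% interval from 0.15 to 0.65 and an edgeR adjusted p of 0.134. Against control mice it was 0.31 ± 0.12 (adjusted p = 0.179), not called because the unadjusted p was 0.0166, and obese mice differed from controls by -0.09 ± 0.12. Without HF replicate 2 or 5 or HFLF replicate 3 or 5, the fold against obese mice was 0.31 to 0.38 and the gene was no longer called (edgeR adjusted p from 0.268 to 0.302).

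Muc4 was higher where posterior Hox genes, which mark position toward the distal end of the gut, were lower. The summed level of 11 posterior Hox genes ran from 484 to 606 CPM (control), from 424 to 549 CPM (obese) and from 351 to 455 CPM (formerly obese), and its r with Muc4 was -0.86 over the 15 mice after group means were subtracted. The same sum had r = -0.82 with Spink4, -0.59 with Agr2, -0.44 with Muc2, 0.17 with Zg16 and 0.50 with Muc1. Of the 9 Hox genes tested, 7 were called lower in formerly obese than in control mice, where 1.87% of all entries were called lower. Hoxb13 was among them at 353, 320 and 275 CPM on average in the 3 groups. Muc4 also had r = 0.83 with the summed dividing cell genes and 0.79 with the summed fibroblast genes, which were at low levels. These correlations describe 15 libraries that share one experiment and one scaling, and the part of colon position or cell makeup in the Muc4 result was not tested. Muc20, a mucin gene on the opposite strand that overlaps the end of Muc4 by 4972 bases, had 2 to 10 counts per library. The gene model Gm34825, also on the opposite strand, shares 16626 bases with the Muc4 span, and no count was available for it. The same holds for Gm15658, which shares 2103 bases with the Muc13 span.

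**Figure D3:**
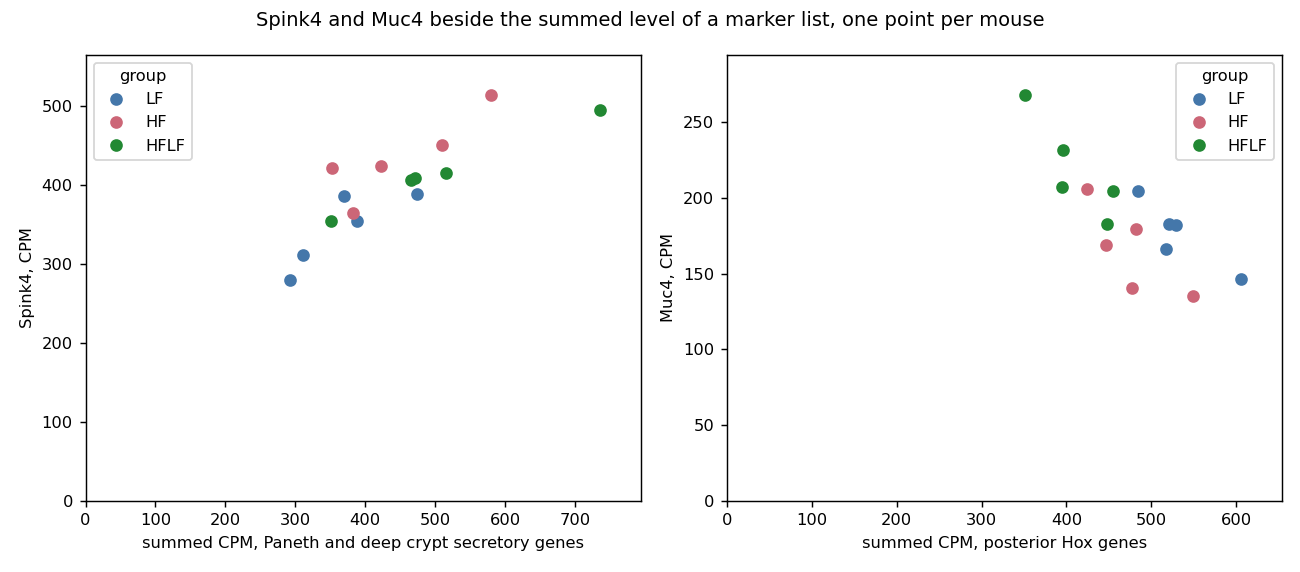
Spink4 level against the summed level of 7 Paneth and deep crypt secretory genes (left) and Muc4 level against the summed level of 11 posterior Hox genes (right), all in CPM, with 1 point per mouse coloured by group (LF, HF, HFLF). Spink4 is higher in mice with a higher sum (r = 0.89 after group means are subtracted) and Muc4 is lower in mice with a higher Hox sum (r = -0.86). For each gene, the list shown is the one with the largest r in absolute value among the lists compared.

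Muc13, the most abundant of the membrane mucins, was at 2136, 2242, 2035, 2302 and 2121 CPM in control mice and at 2212.5, 1968, 2207, 1953.5 and 2204 CPM in obese mice. In formerly obese mice it was at 2366, 2223, 2350.6, 2206 and 2592 CPM, 3 of them above all control and obese mice. The difference from obese mice was 0.15 ± 0.06 (edgeR adjusted p = 0.239), which is less than 1.2-fold, and that from control mice was 0.12 ± 0.06. Muc1 was at 7.41, 8.38, 6.88, 5.05 and 6.88 CPM in control mice, at 7.04, 5.81, 4.96, 4.80 and 6.005 CPM in obese mice and at 5.59, 5.26, 4.76, 5.70 and 5.77 CPM in formerly obese mice. Against controls Muc1 differed by -0.27 ± 0.13 and -0.35 ± 0.13 (edgeR adjusted p = 0.475 and 0.183), with no call in either. Without LF replicate 4, the lowest control mouse, the values were -0.37 and -0.45, and both were called (adjusted p = 0.210 and 0.0461). Over the 15 mice, with group means subtracted, Muc1 had r = -0.83 with the summed Paneth and deep crypt secretory genes. It had r = -0.74 with the summed colonocyte genes and -0.71 with the summed small intestine genes. Of 12 colonocyte genes, 6 were called higher in formerly obese than in control mice, where 1.85% of all entries were called higher. The part of cell makeup in the Muc1 values was not tested.

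The spread between mice set what could be seen. The SD of log2 CPM within groups was 0.31 for Muc2, larger than for 98.6% of the 4098 entries with a mean of at least 1000 counts. Muc4, Fcgbp, Muc1 and Spink4 followed with 0.22, 0.21, 0.21 and 0.19, whereas Muc13 and Creb3l1 had 0.09 and 0.07. The median of those 4098 entries was 0.09. These values describe the mice as sampled, each as 1 library.

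The 10 genes did not rise and fall as a single block between mice of the same diet. Of their 45 pairs, 8 had a Pearson r of at least 0.5 over the 15 libraries after subtracting group means, 2 had an r of -0.5 or lower, and 35 lay between. Zg16 and Tff3 were the most alike (r = 0.88, between 0.85 and 0.94 when any 1 library was left out). Muc2 was near neither of them (r = 0.14 and -0.11), but went with Muc4 (0.72) and Agr2 (0.60). Muc4 also went with Agr2 (0.68) and Spink4 (0.67), and against Tff3 (-0.51). Spink4 and Muc1 had an r of -0.70, and Creb3l1 and Muc13 one of 0.63. All pairs share the depth and scaling of the same 15 libraries, and the coefficients are given as a description.

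**Figure D4:**
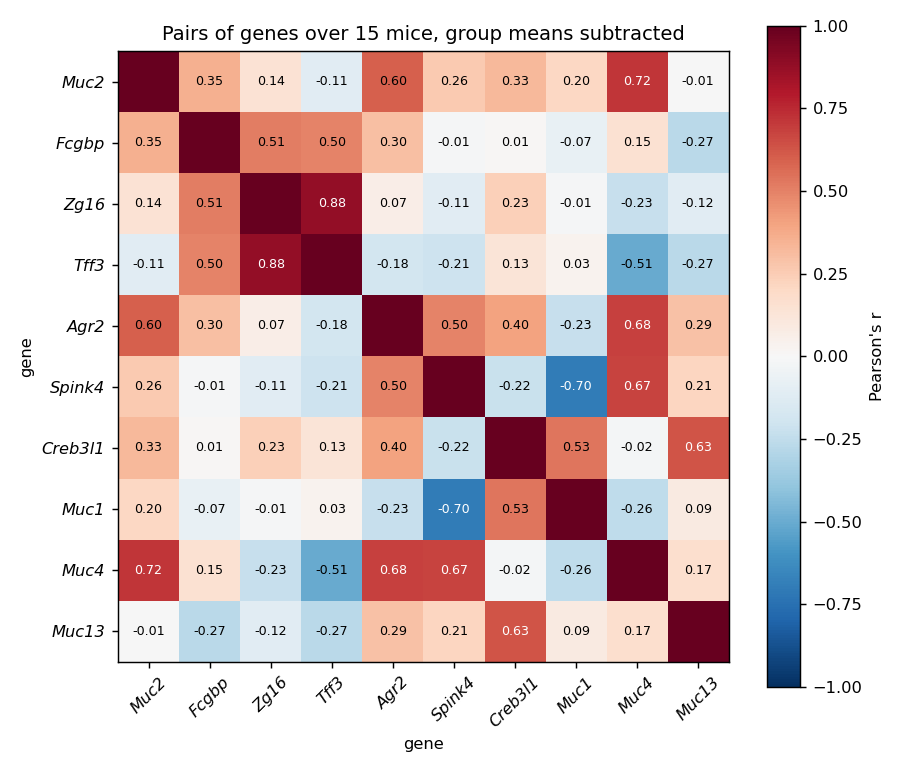
Pearson's r of log2 CPM for each pair of the 10 genes over 15 mice after subtracting the mean of each diet group (colour scale from -1 to 1, value in each cell). Zg16 with Tff3 has the highest value (0.88), Muc2, Agr2 and Muc4 form a second group (0.60 to 0.72), and Spink4 with Muc1 has the lowest (-0.70).

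The promoters of the 3 genes of that second group are shown because they varied together between mice. RefSeq (GRCm38.p6) gave a promoter entry for 6 of the 10 genes, Muc2, Fcgbp, Agr2, Muc1, Muc4 and Muc13. Each line holds the 250 bases before the annotated start on the + strand, chr7:141690090-141690339 for Muc2, chr12:35992675-35992924 for Agr2 and chr16:32735636-32735885 for Muc4. Capitals mark matches to the motifs searched on both strands.
Muc2: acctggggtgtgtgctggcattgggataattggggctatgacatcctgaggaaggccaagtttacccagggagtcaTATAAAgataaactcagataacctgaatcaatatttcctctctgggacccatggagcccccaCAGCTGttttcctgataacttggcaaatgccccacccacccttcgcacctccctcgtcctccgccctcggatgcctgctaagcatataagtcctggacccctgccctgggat
Agr2: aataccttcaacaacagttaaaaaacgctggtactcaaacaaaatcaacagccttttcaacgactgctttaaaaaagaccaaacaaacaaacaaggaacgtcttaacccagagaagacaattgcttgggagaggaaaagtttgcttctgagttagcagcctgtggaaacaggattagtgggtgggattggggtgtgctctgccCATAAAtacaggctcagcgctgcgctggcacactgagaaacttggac
Muc4: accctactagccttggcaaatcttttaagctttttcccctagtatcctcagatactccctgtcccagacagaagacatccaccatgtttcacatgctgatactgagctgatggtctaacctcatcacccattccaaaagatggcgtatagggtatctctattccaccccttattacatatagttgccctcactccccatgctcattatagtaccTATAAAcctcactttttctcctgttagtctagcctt
The motifs were the E-boxes CAGATG and CAGCTG of basic helix-loop-helix factors, the ACGTG core of bZIP factors, the CDX motif TTTATG and the TATA box TATAAA. They occurred in 14.4%, 13.0%, 16.6%, 10.8% and 12.4% of all 32851 promoters of this length. The Muc2 promoter held 1 CAGCTG and 1 TATAAA, that of Agr2 held TTTATG on the other strand, and that of Muc4 held 1 TATAAA close to the start. No motif was shared by all 3 windows, and a match is a string of letters, not a shown binding site.

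Methylation was read at these genes from the deposited list of 8199 differentially methylated regions (DMRs) between obese and control mice, which has positions and directions but no value per mouse. Of the 10 genes, 5 had a DMR inside the gene or within 10 kb of it, where 20.6% of all tested entries had one. In 4 genes it lay inside the gene, against 12.3% of all entries. The spans of Muc2, Fcgbp, Agr2 and Creb3l1, with a DMR inside, are longer than those of 80.7%, 74.9%, 30.5% and 70.5% of all entries, and that of Muc4 is longer than 73.3%. The part of gene length in these counts was not tested. The 5 regions are short and each begins and ends on a CpG, the 2 CpGs being the only ones in the region. They are printed on the + strand of GRCm38.p6 with 10 bases on each side and the CpGs in capitals, as the places where another readout of the same diet contrast was recorded at these genes.
Muc2, chr7:141702995-141703035: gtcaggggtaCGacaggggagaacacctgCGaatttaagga
Fcgbp, chr7:28115865-28115894: ttttttttctCGgtttttCGagacagggtt
Agr2, chr12:36002152-36002216: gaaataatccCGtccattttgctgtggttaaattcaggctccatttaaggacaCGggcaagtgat
Creb3l1, chr2:92016933-92016991: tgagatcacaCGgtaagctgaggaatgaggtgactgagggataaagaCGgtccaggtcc
Muc4, chr16:32785023-32785055: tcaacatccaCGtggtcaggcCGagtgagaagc
The Muc2 region lies in intron 28, that of Fcgbp in intron 17, also within the span of Gm21925, and that of Agr2 in intron 7, and all 3 are listed with higher methylation in obese mice. The Creb3l1 region in intron 1 is listed with lower methylation. The Muc4 region, also listed with lower methylation, lies 2643 bases beyond the end of Muc4 and within the span of Muc20. None of these 5 genes was called in obese against control mice, and their log2 fold changes were 0.13, -0.03, -0.07, -0.10 and -0.09 in the order of the lines. By edgeR, 1 of the 5, Creb3l1, had an unadjusted p under 0.05. Spink4, the called gene, had its nearest DMR 65118 bases away.

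Of 7 transcription factors of secretory and goblet cell fate, Atoh1, Spdef, Klf4, Foxa1, Foxa2, Foxa3 and Gfi1, edgeR and DESeq2 called 0 in each comparison, and Foxa1 and Foxa2 had an unadjusted p under 0.05 with either tool in 1 comparison each. Atoh1, which commits progenitors to the secretory lineage, was at 63.3 ± 9.79, 63.7 ± 3.82 and 63.3 ± 6.56 CPM in control, obese and formerly obese mice (SD, n = 5 each). Spdef, which drives goblet cell maturation, was at 81.2 ± 17.0, 86.0 ± 11.3 and 84.5 ± 4.56 CPM. Klf4, Foxa3 and Gfi1 had log2 fold changes between -0.13 and 0.07 in the 3 comparisons, with no call. Foxa1 was 0.14 ± 0.05 higher in obese mice (edgeR adjusted p = 0.255) and Foxa2 differed by -0.20 ± 0.08 in formerly obese against control mice (edgeR adjusted p = 0.223), both below 1.2-fold. Of 22 tested goblet cell genes outside the 10, edgeR called 0 in obese mice, 1 in formerly obese against control mice (Tpsg1, a tryptase, lower by -0.27 ± 0.08) and 1 in formerly obese against obese mice. The last was Ang4, an antimicrobial ribonuclease, at 86.6 ± 43.2, 50.3 ± 16.5 and 112 ± 61.6 CPM, with a log2 fold change of 1.16 ± 0.39. The calls of Ang4 and Tpsg1 were lost under 15 and 8 of 26 alternatives, DESeq2 and library totals for Ang4 and the GC correction for Tpsg1 among them, with log2 fold changes from 0.88 to 1.35 and from -0.33 to -0.20. Retnlb, a resistin-like bactericidal protein of goblet cells, was at 39.9 ± 12.7, 45.9 ± 18.7 and 76.2 ± 47.0 CPM and was not called. Other gel-forming mucins were near 0: Muc5ac, Muc6 and Muc19 averaged 0.20, 6.07 and 0.20 counts per library, and Muc5b had no count. Of 14 other mucin genes searched by symbol, 9 were found in the count table. Of these only the sialomucin Cd164 had enough reads to test, and it differed by -0.04, -0.05 and -0.01. Genes not found under their symbols, Muc3, Muc12 and Muc17 among them, were not assessed.

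Among 26 tested enzymes that build the sugar chains of mucins, 1 was called in obese against control mice, Gcnt4, a branching N-acetylglucosaminyltransferase, which was at 16.4 ± 3.09 CPM in controls and 23.6 ± 1.46 CPM in obese mice with no overlap (0.52 ± 0.12, edgeR adjusted p = 0.122). That call was lost without LF replicate 2, HF replicate 3 or HF replicate 5, where the fold was still at least 0.46 and the adjusted p at most 0.287. In formerly obese against control mice 5 of 26 were called, 4 of them higher, where 3.72% of all tested entries were called. These were Gcnt4 (0.54 ± 0.12), Gcnt3, which makes core branches of mucin glycans (0.43 ± 0.11), the sialyltransferase St3gal1 (0.60 ± 0.13) and B4galnt2, which adds a terminal N-acetylgalactosamine (0.39 ± 0.08). The fifth, B4galnt3, was lower (-0.34 ± 0.07), and without LF replicate 2 its fold of -0.25 was below the cutoff. B4galnt2 was at 1034 ± 107, 1147 ± 120 and 1356 ± 126 CPM in the 3 groups, and every formerly obese mouse was above every control mouse. The median of the 26 was -0.02 in that comparison, with 11 higher and 15 lower. Galnt12, which starts the glycan chains, was 0.24 ± 0.07 higher in obese mice but below 1.2-fold. In formerly obese against obese mice edgeR called 0 of the 26, although B3gnt3 had a small difference with no overlap (-0.20 ± 0.05, under 1.2-fold) and B4galnt2 was 0.24 ± 0.08 higher, also under 1.2-fold. B3gnt3 was at 259, 293 and 255 CPM on average in control, obese and formerly obese mice. It was also higher in obese than in control mice with no overlap (0.18 ± 0.05, under 1.2-fold), and formerly obese mice differed from controls by -0.02 ± 0.05.

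Of 15 tested genes for granule release and mucus hydration, 1 was called, the chloride and bicarbonate exchanger Slc26a3 of absorptive cells. It was at 1093 ± 207, 939 ± 116 and 1449 ± 177 CPM in control, obese and formerly obese mice, which is 0.41 ± 0.12 above controls and 0.62 ± 0.12 above obese mice. Formerly obese mice did not overlap with either group, although the call against controls was lost without LF replicate 5 or HFLF replicate 5 (adjusted p up to 0.182). Slc26a3 is also one of the 6 colonocyte genes called higher in formerly obese mice. The small GTPase Rab3d and the SNARE protein Vamp8 of secretory granules differed by -0.15 each in obese mice, with no call. Myo5b, a motor of vesicle transport, was 0.20 ± 0.04 and Nlrp6, an inflammasome receptor linked to mucus release, 0.22 ± 0.06 higher in formerly obese than in control mice, both under 1.2-fold.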

How the data were processed

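RNA-seq libraries were made by the authors from colonic epithelium of 15 mice (stranded mRNA kit), and per the labels reads were aligned with TopHat2 2.0.4 to mm10 and counted per gene with HTSeq. The deposited table holds raw counts, 1 column per mouse. The strand setting of the counting is not given in the sources used here. The authors' DESeq2 result tables hold fold changes and p-values and were not used. The authors' DMR list (Bismark, Rao-Scott test) gives positions and a direction. Amplicon methylation was not used.

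The comparison used edgeR 4.0.16 under R 4.3.3: filterByExpr, TMM scaling and 1 quasi-likelihood fit of all 15 libraries with the group as the only term. Calls needed a fold over 1.2, p under 0.01 and adjusted p under 0.25. DESeq2 1.42.0 served as an alternative. The fit was tested on simulated data. CPM refer to the TMM-scaled total, with a prior count of 2 on the log2 scale. Intervals are 95% and cover spread between mice, and depth was 15230391 to 22762095 counts. Sequences were read with samtools 1.23.1 from GRCm38.p6 (RefSeq), and the DMR starts were taken as 0-based, since 100 of 100 regions read then began on a CG.

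The 10 genes and the other lists were chosen with earlier results of these data known. Named were all 10 genes, every called gene of the goblet, mucin, glycosylation and granule lists with the 2 smallest p-values per list and comparison, and 5 fate factors. Called cell type markers are given mostly as counts. Alternatives changed the tool, scaling, filter, libraries, GC correction, replicate block and cutoff. Genes are listed under the symbols of the table.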

Additional observations from a re-analysis of the deposited data

Results flagged for a closer look

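The Tff3 level of HFLF replicate 2 stood apart from the other formerly obese mice. It was 594 CPM, and the nearest of the other 4 mice was at 461 CPM, so the gap took 0.743 of the range of the group, past the limit of Dixon's test for 5 samples. In all, 30 groups of 5 values (10 genes in 3 diets) were examined in this way, and 1 was marked, while chance marks about 5% of groups. The same mouse had the highest Zg16 level of its group (1733 CPM).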

How the results depend on the processing

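With all libraries, 315 of 330 alternative values of the 10 genes kept their direction and their side of the cutoffs, and 414 of 450 did so with 1 library left out. Spink4 in obese against control mice was not called with no filter on low counts (0 of 10 genes), and Spink4 and Muc4 were called in formerly obese against control mice by DESeq2 (2 of 10 genes), Muc4 alone (1) when only the groups compared were fitted. With an adjusted p under 0.05 and no fold cutoff, 0 of 10 genes were called in each comparison, all entries gave 16, 282 and 25 calls in the 3 comparisons (205, 482 and 343 in the report), and the other goblet, mucin, glycosylation and granule genes 0, 7 and 1. Except for the stricter cutoff, the calls over all entries under these settings are not given beside these counts. The cause of each of these changes other than the stricter cutoff was not tested. Directions turned for values near 0: Fcgbp in formerly obese against control mice was -0.00269 with upper-quartile scaling and -0.00915 with library totals, Zg16 in formerly obese against obese mice was -0.0143 with library totals, and Creb3l1 there was 0.0409 with the GC trend removed and 0.0394 with GC correction and replicate block.

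Replicate numbers showed no pairing across all mice: 5 of 15 same-numbered pairs had r over 0.1 (range -0.22 to 0.41). These pairs were not spread over the numbers. Replicate 2 had r of 0.28, 0.34 and 0.24 in every pair of groups. Replicate 3 had 0.23 between control and obese mice and 0.41 between obese and formerly obese mice. What these mice shared was not tested. With the replicate block, 2 of 10 genes were called in formerly obese against control mice (Spink4 and Muc4), also after GC correction (2), and 1 of 10 in each other comparison. The shares of all entries called with the block are not given here.

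With 1 library left out, calls over all entries ranged from 40 to 331 in obese against control mice and from 167 to 400 in formerly obese against obese mice. Calls among the 10 genes ranged from 0 to 2, from 0 to 2 and from 0 to 1 in the 3 comparisons, and among the other lists from 0 to 2 in obese against control mice and from 1 to 4 in formerly obese against obese mice. Fold changes that turned ranged from -0.10 to 0.0245 (Fcgbp) and from -0.0033 to 0.11 (Zg16) in obese against control mice, from -0.0721 to 0.0732 (Fcgbp) and from -0.0022 to 0.12 (Zg16) in formerly obese against control mice, and, in formerly obese against obese mice, from -0.0299 to 0.19 (Muc2), -0.0480 to 0.10 (Fcgbp), -0.0470 to 0.0628 (Zg16), -0.14 to 0.0029 (Spink4) and -0.14 to 0.0071 (Muc1). Of all calls in formerly obese against obese mice, 159 were higher and 184 lower, against 106 and 268 with library totals and 165 and 103 with the GC trend removed. Within 100 kb, 10 of 10 genes had a DMR, where 62.4% of all entries had one. Intervals were widest for Muc2 and Muc1 (SE 0.17 and 0.13).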

Other observations

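Outside the mucus genes, the entries that went most closely with each of the 10 genes were mostly not in the gene lists used here. They were compared over the 15 libraries with group means subtracted and needed a mean of at least 50 counts. Their cell types were not examined. Muc2 was closest to the potassium channel gene Kcnk6 (r = 0.87), then to Zfp275, Pde2a, Rfx7 and Stx17 (0.86 to 0.87). The 99th percentile of r with Muc2 over all 12960 other entries was 0.70. For the other genes it lay between 0.59 (Zg16) and 0.77 (Muc4). Agr2 had the closest partners, Wbp5 (now named Tceal9, 0.97) and the tetraspanin gene Tspan13 (0.95). Spink4 was closest to B4galnt2 (0.91), the glycosyltransferase described above, and to Smcr8 (0.88). Muc4 was closest to Gstcd (0.92) and Mphosph9 (0.91), and Muc13 to Stom (0.93) and to the hexokinase gene Hk2 (0.92). Fcgbp and Zg16 both had the ubiquitin ligase gene Pja2 among their 2 closest (0.86 and 0.77).

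The summed enteroendocrine genes had r = 0.84 with Agr2 and 0.65 with Muc4, and the summed other goblet cell genes had r = 0.79 with Fcgbp and 0.70 with Agr2, but 0.14 with Tff3. Muc2 had r = 0.74 with the summed stem cell genes, -0.71 with the summed pan-epithelial genes and 0.60 with the summed fibroblast genes. The part of cell makeup in the Muc2 values was not tested.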
